A study of Mus musculus with 14 samples.

Results

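Of the 53801 genes measured in bulk RNA-seq of CT26 tumors, 8 genes of the interleukin-1 (IL-1) family are described here, Il1a, Il1b, Il33, Il1rn, Il1r1, Il1rl1, Il1rap, and Il1r2. They were chosen by name, with their differences between the groups already known, so those differences, and the calls the fit over all genes gave them, are a description and not a test of these genes. All 8 had enough counts to enter the fit, as did 16287 genes in all.

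The tumors came from CT26, a colorectal carcinoma line of Balb/c mice, which was labeled with DNA barcodes and transplanted under the skin of both flanks of 6 to 8 week old female Balb/c mice. Control IgG or anti-PD-1, an antibody against the T cell checkpoint receptor PD-1, was given from day 7 at 200 μg per mouse every 3 days for 5 doses, and tumors were taken 3 days after dosing ended. Of the 14 tumors, 5 from 4 mice had received control IgG. Among those given anti-PD-1, 5 from 4 mice were responders, and 4 from 3 mice were non-responders. The study set response by tumor size at the end of treatment, so the response groups also differ in size, and all tumors grew from 1 barcoded cell pool in hosts with an intact immune system. A tumor is named by its mouse number and flank. Tumors 14L and 14R (control IgG), 30L and 30R (responders), and 33L and 33R (non-responders) were pairs from the same mouse, so the tumors are not fully independent.

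The total of the expected counts was 33237744 to 48481461 per tumor. The effective gene lengths gave an estimated mean fragment length of 268.7 to 277.7 bases in control IgG tumors, 277.5 to 287.8 in non-responders, and 269.5 to 277.0 in responders. Of the markers of carcinoma epithelium, Krt18 was at 7.75 to 15.9 CPM (counts scaled to the library size) over the 14 tumors, while Cdx2 and Vil1, which mark intestinal epithelium, reached at most 0.680 and 0.174 CPM. The whole set of 9 such markers summed to 28.6 to 50.3 CPM in control IgG tumors, 23.9 to 32.7 in non-responders, and 11.6 to 44.0 in responders. Of these, 7 were tested, and 1 was called in edgeR, Cdx2, as lower in responders than in control IgG tumors (0.148 against 0.570 CPM, adjusted p = 0.0303). These groups overlapped in Cdx2, and its lowest tumor was at 0.0199 CPM, so the call was made at a very low level. In that comparison 13.2% of all genes tested were called.

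IL-1 alpha and IL-1 beta (Il1a, Il1b) are inflammatory cytokines that bind the receptor IL-1R1 (Il1r1), and IL-33 (Il33) is an alarmin that binds ST2 (Il1rl1). Neither receptor signals alone. Each recruits the shared accessory chain IL-1RAcP (Il1rap), which brings the intracellular domains together and engages Myd88 and the IRAK kinases. The pathway is held back by the receptor antagonist (Il1rn), which occupies IL-1R1 without recruiting the accessory chain, by the decoy receptor (Il1r2), which lacks a signaling domain, and by a soluble form of ST2 that captures IL-33. In tumors these genes are known from macrophages, neutrophils, fibroblasts, mast cells, and regulatory T cells as well as from cancer cells.

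In mm10 the receptor genes Il1r2 (chr1:40074079-40125231), Il1r1 (chr1:40225080-40317257), and Il1rl1 (chr1:40429570-40465415) lie in 1 cluster on the plus strand of chromosome 1. The ligand genes Il1a (chr2:129299610-129309972) and Il1b (chr2:129364570-129371139) are neighbors on the minus strand of chromosome 2, where Il1rn (chr2:24336853-24351494) lies on the plus strand. Il1rap (chr16:26581704-26730117) and Il33 (chr19:29925114-29960718) are on the plus strands of chromosomes 16 and 19.

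The sequences shown first are those on which the reading of Il1rl1 turns, because this gene makes a membrane receptor and a soluble decoy from the same exons. The GENCODE M21 transcripts Il1rl1-201 (5053 bases) and Il1rl1-202 (5302 bases) carry the long coding sequence of 567 codons, and Il1rl1-203 (2661 bases) and Il1rl1-205 (1216 bases) carry the short one of 337 codons. Both forms share the coding bases up to chr1:40446675. The short form reads on into chr1:40446676-40446704 and stops there. The long form is spliced to an exon that starts at chr1:40450075 and is printed up to chr1:40450119. In the mm10 sequences, read 5′ to 3′ on the plus strand, the last 45 shared bases are in lower case, and the bases that only that form has are in capitals. They end with the stop codon in the short form and run through the first 45 bases of the next exon in the long form.
Il1rl1-203, short form: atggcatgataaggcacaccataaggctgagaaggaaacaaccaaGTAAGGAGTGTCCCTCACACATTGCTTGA
Il1rl1-202, long form: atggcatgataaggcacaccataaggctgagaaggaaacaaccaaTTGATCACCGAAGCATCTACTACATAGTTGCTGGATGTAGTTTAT
The deposited values hold 1 row per gene, so reads of the forms were not counted apart. The isoform-weighted transcript length of the gene depends on their mix, but also on which transcripts of each form were present. It is given below beside the level of Il1rl1.

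Il1rl1 also starts at a distal and a proximal site, and Il1rap has 1 start in the RefSeq table (GRCm38.p6). All 8 genes were found in that table, with 13 start windows of 300 bases, 250 before and 50 after the start. The 250 bases before each of these starts are printed because they are the start sites of the most abundant gene and of the one whose groups lay farthest apart. Capitals mark a GATA motif (AGATAA, either strand).
Il1rl1, distal, chr1:40429320-40429569, plus strand: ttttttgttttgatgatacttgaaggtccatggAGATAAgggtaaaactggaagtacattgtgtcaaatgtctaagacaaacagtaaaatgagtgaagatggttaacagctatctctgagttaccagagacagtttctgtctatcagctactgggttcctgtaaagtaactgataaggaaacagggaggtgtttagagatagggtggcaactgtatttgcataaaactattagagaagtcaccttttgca
Il1rl1, proximal, chr1:40439379-40439628, plus strand: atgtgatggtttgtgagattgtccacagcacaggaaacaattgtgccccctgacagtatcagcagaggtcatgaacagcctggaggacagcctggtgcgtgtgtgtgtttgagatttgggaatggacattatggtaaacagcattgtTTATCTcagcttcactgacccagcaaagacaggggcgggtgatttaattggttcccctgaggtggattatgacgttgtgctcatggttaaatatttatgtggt
Il1rap, chr16:26581455-26581704, plus strand: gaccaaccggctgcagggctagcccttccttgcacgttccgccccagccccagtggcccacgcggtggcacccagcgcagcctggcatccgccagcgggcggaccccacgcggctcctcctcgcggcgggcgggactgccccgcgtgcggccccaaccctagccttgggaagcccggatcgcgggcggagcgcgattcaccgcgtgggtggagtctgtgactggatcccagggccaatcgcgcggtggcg
Both Il1rl1 windows held 1 GATA motif, which 11.2% of the 32851 windows of all genes also held. An AP-1 motif (TGANTCA) was found in a window of Il1a and of Il1rn, against 7.81% of all windows, and an NF-kappaB motif (searched by name) in 1 window of Il1r1, against 8.46%. None of the 3 was in the windows of Il1rap, Il1r2, Il1b, or Il33. A match is a stretch of letters only, and no measurement of binding was made.

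In TPM, a level scaled for transcript length and to the same total in each tumor, Il1rl1 was the most abundant of the 8 genes in every tumor, at 128.4 ± 32.8 TPM (SD, n = 14, range 73.1 to 188.1). Its lowest tumor was above the highest tumor of each other member. Il1rn followed at 19.6 ± 6.12 TPM, Il1r1 at 16.9 ± 2.45, Il1b at 15.7 ± 6.04, Il33 at 10.9 ± 3.55, and Il1rap at 7.64 ± 2.81 (SD, n = 14 each). Neighbors in that order overlapped, as did Il1rap with Il1r2 at 2.70 ± 1.16 TPM. Il1a was lowest, at 0.607 ± 0.218 TPM, below every value of Il1r2. The order of mean TPM was the same in the 3 groups. In control IgG tumors and non-responders, Il1rap was above Il1r2 without overlap, and in responders these 2 genes overlapped (Il1rap 3.94 to 5.02 TPM, Il1r2 2.61 to 5.70 TPM).

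Between responders and non-responders, 1 of the 8 members was called (edgeR fit over all genes, Benjamini-Hochberg adjusted p below 0.05). It was Il1rap, which was lower in responders. Over all genes tested, 9.9% were called in that comparison, 4.82% as lower. Between responders and control IgG tumors, 3 members were called, Il1rap and Il1r1 as lower and Il1r2 as higher, where 13.2% of all genes were called. Between non-responders and control IgG tumors, none of the 8 was called, and none had an unadjusted p under 0.05 in edgeR. Over all genes 0% were called there, and 4.65% had an unadjusted p under 0.05. DESeq2 called 0 of the 8 there as well. The members were chosen with these contrasts known, so nothing is read from these counts. The median log2 fold change of the 8 was 0.14, -0.01, and -0.05 in the 3 comparisons in that order, and over all genes tested it was 0.006, -0.011, and 0.006.

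**Figure D1:**
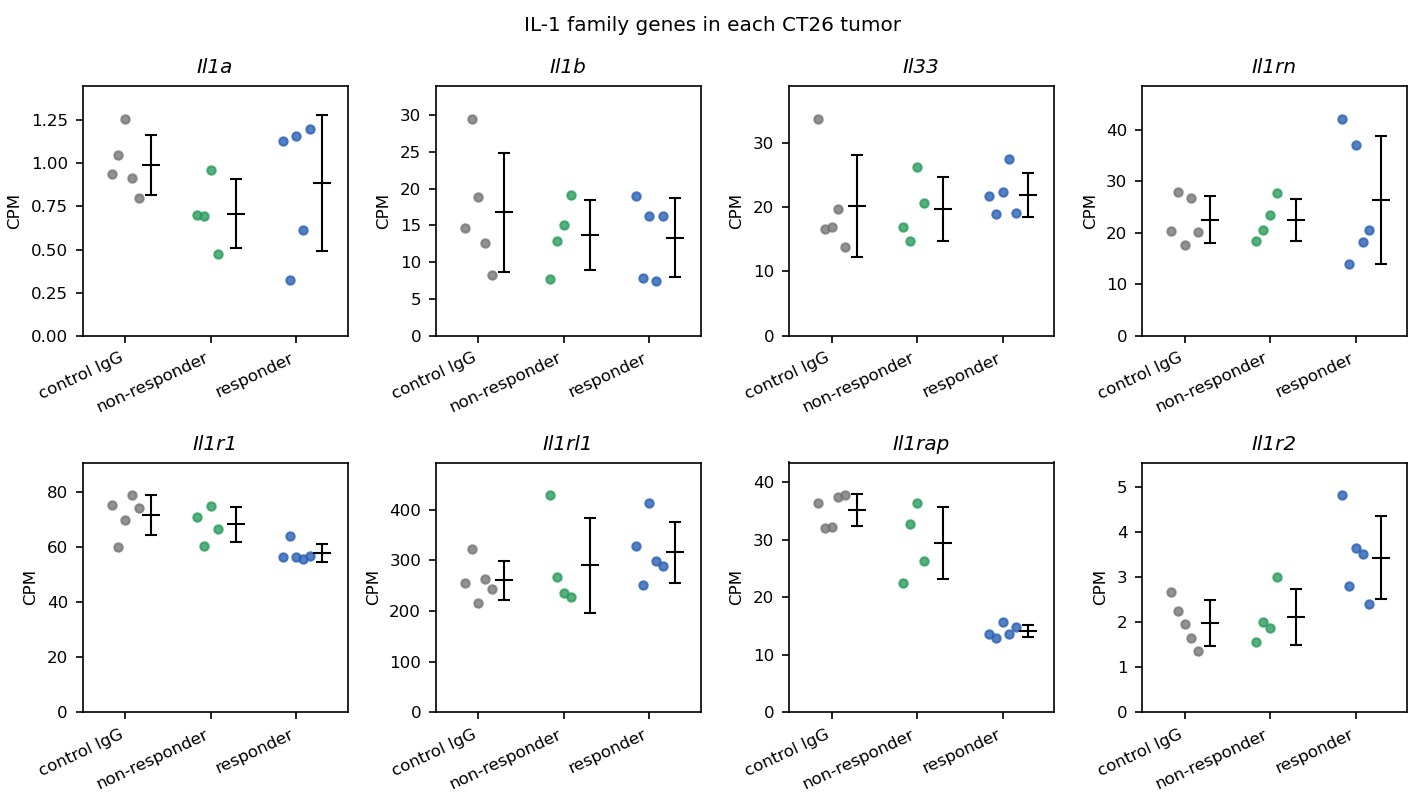
CPM of each IL-1 family gene (vertical axes, linear from 0, a separate scale per gene) in the control IgG, non-responder, and responder tumors, where each point is 1 tumor and the black bar is the mean with the SD. The 5 responders lie between 12.9 and 15.7 CPM for Il1rap, below all other tumors, while the 3 groups overlap for the ligands.

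Il1rap (ENSMUSG00000022514), the accessory chain of both receptors, was at 36.5, 32.1, 32.3, 37.4, and 37.8 CPM in control IgG tumors 14L, 14R, 16R, 17R, and 20R. In non-responders 29L, 32R, 33L, and 33R it was at 22.5, 32.7, 36.4, and 26.4 CPM. In responders 24L, 26R, 30L, 30R, and 35L it was at 13.7, 12.9, 15.7, 13.7, and 14.8 CPM. All 5 responders were below all 9 other tumors, while the non-responders spread from within the control range to below it. Means were 35.2 ± 2.79 CPM in control IgG tumors, 29.5 ± 6.23 in non-responders, and 14.1 ± 1.08 in responders (SD, n = 5, 4, and 5). The log2 fold change was -1.06 (standard error 0.12) against non-responders, so that the level in responders was 0.479 of theirs. On the log2(TPM + 1) scale, where the median of all genes was shifted by 0.169, that difference was -0.67. Against control IgG tumors it was -1.32 (standard error 0.12), or 0.402 of their level. Non-responders differed from control IgG tumors by -0.25 on the log2 scale (standard error 0.12). Groups that do not overlap were also seen in 12.8% of all genes for responders against non-responders, 6.04% as lower, and in 15.1% for responders against control IgG tumors, 6.72% as lower. In bulk tumors, fewer cells that express Il1rap and less Il1rap RNA per cell cannot be told apart.

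The same split was seen when Il1rap was set against the receptors it serves. The ratios to Il1r1 and to Il1rl1 hold the same Il1rap values, so they are not a separate observation. The ratio of Il1rap to Il1r1 TPM was 0.572 ± 0.0436 in control IgG tumors, 0.503 ± 0.104 in non-responders, and 0.286 ± 0.0379 in responders (SD, n = 5, 4, and 5). The highest responder, at 0.332, was below the lowest non-responder, at 0.378. The ratio of Il1rap to Il1rl1 TPM was 0.0909 ± 0.0132 in control IgG tumors, 0.0745 ± 0.0269 in non-responders, and 0.0313 ± 0.00349 in responders (SD, n = 5, 4, and 5). For this ratio too the groups of responders and non-responders did not overlap, but by little, with a highest responder of 0.0347 and a lowest non-responder, 29L, of 0.0360.

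**Figure D2:**
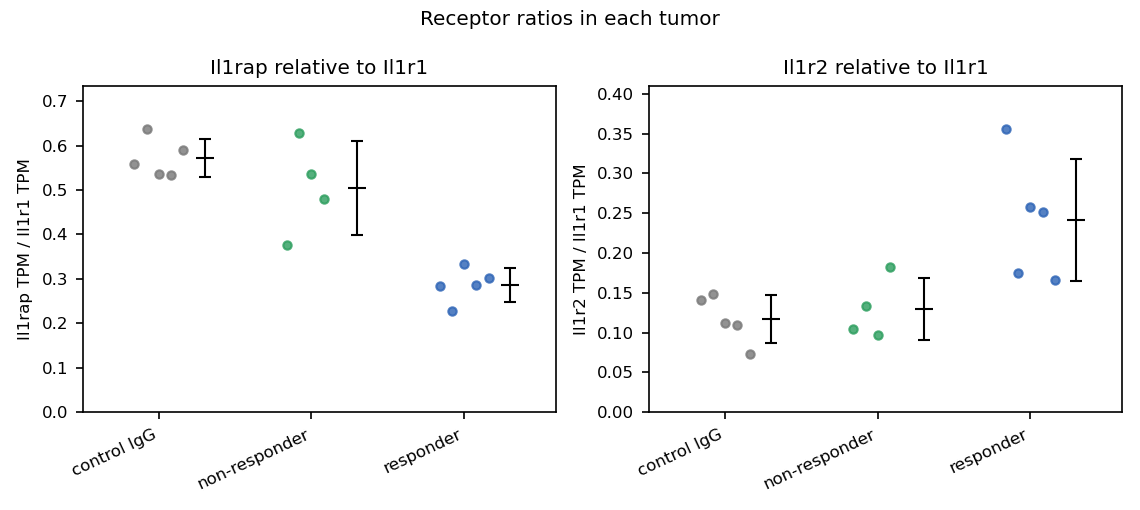
Ratio of Il1rap to Il1r1 TPM (left) and of Il1r2 to Il1r1 TPM (right) on linear axes from 0, by group, where each point is 1 tumor and the black bar is the mean with the SD. Responders have the lowest Il1rap to Il1r1 ratios, up to 0.332, and Il1r2 to Il1r1 ratios of 0.166 to 0.355, which overlap the highest non-responder at 0.182.

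Il1rap makes membrane and soluble forms as well. Il1rap-202 (4438 bases) has 685 codons, Il1rap-201 (4520 bases) has 570, and the shortened Il1rap-206 (2306 bases) has 360. The isoform-weighted transcript length of Il1rap was 4198.9 ± 86.2 bases in control IgG tumors, 4185.0 ± 124.5 in non-responders, and 4184.1 ± 81.2 in responders (SD, n = 5, 4, and 5). The 3 groups overlapped throughout, and the difference between responders and non-responders was -0.9 bases (limma over 12389 genes, adjusted p = 1). The lower level was thus measured without a detected change in mean transcript length.

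Il1r1 (ENSMUSG00000026072), the signaling receptor for IL-1 alpha and IL-1 beta, varied little. It was at 75.4, 60.2, 70.1, 79.0, and 74.4 CPM in the control IgG tumors, in the order given for Il1rap, and at 70.9, 60.5, 75.2, and 66.7 CPM in non-responders. In responders it was at 56.3, 64.0, 56.5, 55.8, and 57.0 CPM. Apart from 26R, at 64.0, the responders were below every other tumor. The log2 fold change was -0.24 (standard error 0.09) against non-responders and -0.31 (standard error 0.08) against control IgG tumors, but on the log2(TPM + 1) scale it was 0.02 and -0.16. The median of all genes was itself shifted on that scale, by 0.169 and 0.085, and both values of Il1r1 were below it. Only against non-responders did the sign of Il1r1 differ between the scales, by a value smaller than that shift. In TPM, responders (15.1 to 17.3) lay within the range of non-responders (12.4 to 20.0). The call against control IgG tumors was also lost without tumor 14L, 17R, 20R, 24L, 30L, or 30R, with log2 fold changes of -0.36 to -0.27 when any 1 tumor was left out. Against non-responders Il1r1 was not called, but it was with mouse as a random effect and with the length trend removed, and it was not with 1 library per mouse.

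Il1r2 (ENSMUSG00000026073), the decoy receptor, moved the other way at a low level. It was at 2.67, 2.26, 1.97, 1.66, and 1.37 CPM in control IgG tumors, 1.57, 2.01, 1.87, and 3.01 CPM in non-responders, and 4.83, 2.80, 3.65, 3.52, and 2.40 CPM in responders. The lowest responder, 35L, was below control tumor 14L, and the highest non-responder, 33R, was above responders 26R and 35L. Means were 1.99 ± 0.506 CPM in control IgG tumors, 2.12 ± 0.624 in non-responders, and 3.44 ± 0.934 in responders (SD, n = 5, 4, and 5). Responders differed by 0.70 on the log2 scale (standard error 0.25) against non-responders and 0.79 (standard error 0.24) against control IgG tumors. These values rest on 60 to 209 counts per tumor. The call against control IgG tumors was lost without 14R, 16R, 17R, 20R, 24L, 30L, 30R, or 32R, while the log2 fold change stayed between 0.64 and 0.92 when any 1 tumor was left out. Against non-responders Il1r2 was not called, but it was with DESeq2, with TPM, with mouse as a random effect, and with the length trend removed, and it was not with 1 library per mouse. The ratio of Il1r2 to Il1r1 TPM was 0.117 ± 0.0301 in control IgG tumors, 0.129 ± 0.0382 in non-responders, and 0.241 ± 0.0764 in responders (SD, n = 5, 4, and 5). Responders, with a lowest ratio of 0.166, lay above all control IgG tumors, with a highest of 0.149, but overlapped non-responder 33R at 0.182.

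**Figure D3:**
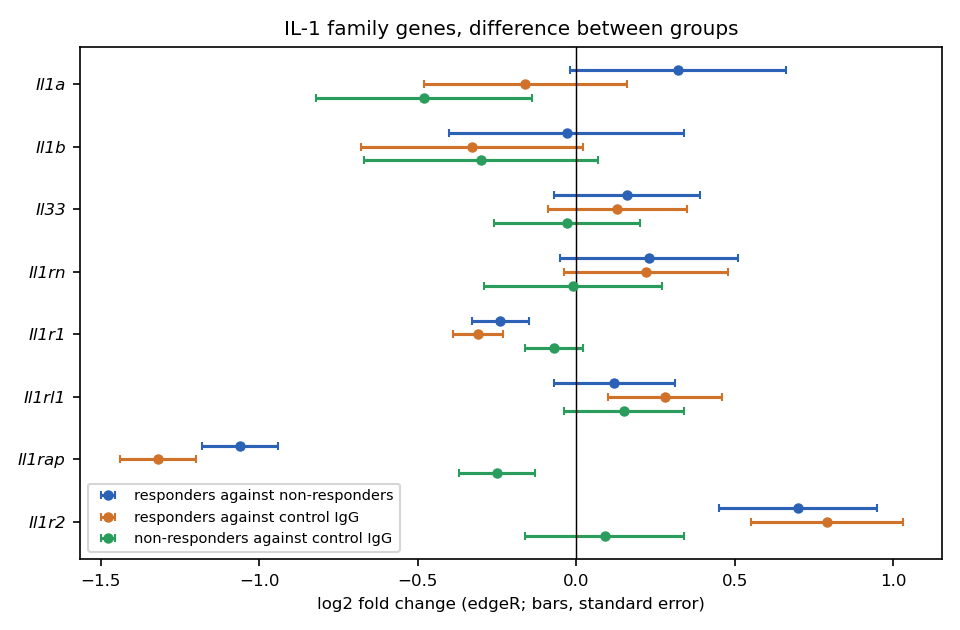
Log2 fold change of each IL-1 family gene from the edgeR fit (horizontal axis) for the 3 comparisons, which share groups, with bars of 1 standard error. Il1rap is lowest, at -1.06 and -1.32 in the comparisons with responders, Il1r2 is highest, at 0.70 and 0.79, and the ligands and Il1rn lie between -0.48 and 0.32.

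Il1rl1 (ENSMUSG00000026069), the IL-33 receptor ST2, was at 255.6, 322.3, 216.3, 263.8, and 243.6 CPM in control IgG tumors. It was at 428.5, 267.4, 236.2, and 226.4 CPM in non-responders and at 328.5, 251.0, 412.2, 297.6, and 289.2 CPM in responders. The 3 groups overlapped, and the highest value was that of a non-responder, 29L. The log2 fold change of responders was 0.12 (standard error 0.19) against non-responders and 0.28 (standard error 0.18) against control IgG tumors. The 10 mast cell and basophil markers, genes of cells known for ST2, summed to 86.1 to 152.8 CPM in control IgG tumors, 83.8 to 151.9 in non-responders, and 63.1 to 142.7 in responders, and 0 of 10 were called in each comparison with edgeR. Of all genes tested, 9.9% were called for responders against non-responders, 13.2% for responders against control IgG tumors, and 0% for non-responders against control IgG tumors.

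The transcript length of Il1rl1 was not used to choose the genes, and it was tested. The weighted length was 2874.5, 2882.2, 2841.4, 2896.1, and 2850.3 bases in control IgG tumors, and 2900.8, 2923.8, 2884.0, and 2920.6 bases in non-responders. In responders it was 2982.6, 3001.6, 2951.4, 2954.3, and 2895.4 bases. Of the 5 responders, 4 were above every other tumor, and 35L was near the top of the control range. Responders were 88.1 bases longer than control IgG tumors on average (2957.0 ± 40.3 against 2868.9 ± 22.6, SD, n = 5 each). By limma on log2 length this difference had an unadjusted p of 4e-04, where 5.28% of genes were under 0.05, and an adjusted p of 0.233 over the 12389 genes with a variable length, so it was not called. When any 1 tumor was left out, the adjusted p in limma ranged from 0.0559, without 35L, to 0.492, without 16R, so it was not called in these fits either. Responders were 49.7 bases longer than non-responders (limma adjusted p = 0.81), and non-responders 38.4 bases longer than control IgG tumors (limma adjusted p = 1). Calls of length were rare, with 0.00807%, 0.0161%, and 0% of all genes in the 3 comparisons, and none of the 8 members. Fragment length, which enters RSEM's estimates, had like ranges in control IgG tumors and responders and a higher one in non-responders, and its part in the length of Il1rl1 was not tested.

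In all tumors the weighted length stayed close to the 2661 bases of the short Il1rl1-203 and far from the 5053 bases of the long Il1rl1-201, the sequences of which are compared above at the point where they part. If only these 2 transcripts were present, the long form would make up 8.69 ± 0.946% of Il1rl1 transcripts in control IgG tumors, 10.3 ± 0.777% in non-responders, and 12.4 ± 1.68% in responders (SD, n = 5, 4, and 5). If the short form were the 1216-base Il1rl1-205 instead, which starts at the distal site, the long share would be 43.1 ± 0.590%, 44.1 ± 0.484%, and 45.4 ± 1.05%. The share thus depends on which short transcript was present, which the gene values do not tell. For the same reason, a difference in length between groups need not be a difference in the share of the forms. In these 2-transcript cases, the transcripts of the soluble form would outnumber those of the membrane form in each tumor. A further transcript, Il1rl1-204 (375 bases, 65 codons), was left out of these shares, so the gene lengths alone do not settle which form was more abundant.

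**Figure D4:**
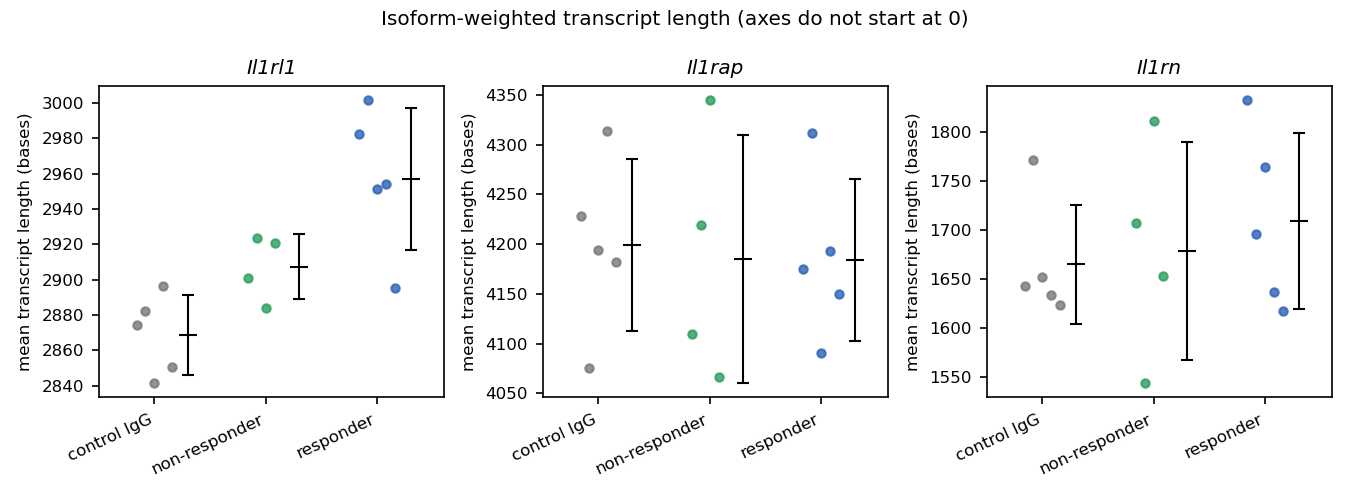
Isoform-weighted transcript length in bases (vertical axes, which do not start at 0) of Il1rl1, Il1rap, and Il1rn by group, where each point is 1 tumor and the black bar is the mean with the SD. For Il1rl1, 4 of 5 responders lie above all other tumors and 35L, at 2895.4 bases, does not, while for Il1rap and Il1rn the groups overlap.

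For each of the 3 ligands the groups overlapped. Il1b (ENSMUSG00000027398), the main secreted IL-1, ranged from 8.23 to 29.5 CPM in control IgG tumors (median 14.7), 7.67 to 19.1 in non-responders, and 7.45 to 19.0 in responders. Its log2 fold change was -0.03 (standard error 0.37) for responders against non-responders and -0.33 (standard error 0.35) against control IgG tumors. Tumors of one mouse also differed, with 14.7 and 29.5 CPM in 14L and 14R, and 16.2 and 7.45 CPM in 30L and 30R. Il1a (ENSMUSG00000027399), the cell-associated ligand, was at 0.321 to 1.26 CPM over all tumors, from 11 to 55 counts, and its log2 fold change was 0.32 (standard error 0.34) for responders against non-responders and -0.16 (standard error 0.32) against control IgG tumors. Il33 (ENSMUSG00000024810) was at 13.8 to 33.8 CPM in control IgG tumors, 14.8 to 26.3 in non-responders, and 19.0 to 27.5 in responders, with log2 fold changes of 0.16 (standard error 0.23) and 0.13 (standard error 0.22). No difference in Il1a, Il1b, or Il33 between responders and the other groups was called.

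Il1rn (ENSMUSG00000026981), the receptor antagonist, was most variable within the responders. They were at 42.2, 13.9, 37.1, 18.3, and 20.5 CPM, so that 24L and 30L lay above all other tumors and 26R below them. Control IgG tumors were at 17.7 to 28.0 CPM and non-responders at 18.4 to 27.7. The log2 fold change of responders was 0.23 (standard error 0.28) against non-responders and 0.22 (standard error 0.26) against control IgG tumors. The ratio of Il1rn to Il1b TPM was 1.23 ± 0.572 in control IgG tumors, 1.35 ± 0.333 in non-responders, and 1.49 ± 0.334 in responders (SD, n = 5, 4, and 5), and the 3 groups overlapped. Antagonist and ligand RNA were of the same order in every group.

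Some markers of immune cells were called as higher in responders. Over all genes, 5.08% were called as higher against non-responders and 7.88% against control IgG tumors. The neutrophil and endothelial lists held at most 1 call per comparison, which a list of 8 tested genes cannot tell from those shares. The carcinoma marker Cdx2 given above was not called against non-responders (edgeR adjusted p = 0.0634). The part of all these markers in the levels of Il1rap, Il1r1, and Il1r2 was not tested. The median log2 fold change of the 7 tested carcinoma markers was -0.16 for responders against non-responders and -0.78 against control IgG tumors. Of 8 T cell markers, 7 were called as higher in responders against non-responders and 8 against control IgG tumors, and their sum was 17.2 to 41.0 CPM in control IgG tumors, 22.6 to 28.0 in non-responders, and 40.2 to 80.0 in responders. The 6 dendritic cell markers summed to 12.2 to 18.9, 13.1 to 15.0, and 23.3 to 34.0 CPM in the same order, with 4 and 5 called as higher. The 6 regulatory T cell markers summed to 6.74 to 10, 8.13 to 10.5, and 10.6 to 18.3 CPM, with 2 and 3 called as higher. For the 10 monocyte and macrophage markers the sums were 1535.5 to 1783.9, 1402.2 to 1696.7, and 1762.8 to 2074.8 CPM, with 2 called as higher in each comparison with responders. Of 11 markers of neutrophils, cells known for Il1r2 and Il1b, 8 were tested. Only Csf3r was called, as higher, in both comparisons with responders, and the sums overlapped (45.3 to 108.7, 46.3 to 148.2, and 42.9 to 109.0 CPM). The median log2 fold change of the 8 was -0.29 against non-responders and -0.11 against control IgG tumors. For the 10 fibroblast markers the sums were 2468.1 to 3165.9, 2385.0 to 4441.1, and 2944.6 to 4938.0 CPM, with 1 called as higher against non-responders, and 3 as higher and 1 as lower against control IgG tumors. The sums of 8 endothelial markers were 159.9 to 238.1, 191.0 to 247.0, and 237.7 to 294.4 CPM, with 1 called as higher against control IgG tumors. Tissue around the tumor varied between tumors of a group, with 12 epidermis markers at 9.18 to 813.6, 162.7 to 346.4, and 14.6 to 1097.7 CPM, and 8 skeletal muscle markers at 136.3 to 1339.7, 98.1 to 794.7, and 26.6 to 444.4 CPM, and none of these was called in edgeR. No marker gene was at 0 over a whole group.

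Over the 14 tumors, the genes whose log2 CPM followed Il1rap most closely were Stau2 (Pearson r = 0.965), Mta2 (0.965), and Bnc2 (0.960), genes of an RNA-binding protein, a chromatin remodeling subunit, and a zinc finger protein. For Il1r2 they were Irf9 (0.952), a transcription factor of interferon signaling, Ass1 (0.950), and Pla2g16 (0.940). The closest gene was Mgarp for Il1rn (0.925), Tox4 for Il1rl1 (0.851), Adamts5 for Il33 (0.828), Rab36 for Il1a (0.873), and Cenpv for Il1b (0.874). These values describe n = 14 tumors that share groups and mice, and the highest of 16287 such values is high by selection.

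The other genes of the pathway were taken from lists of 80 genes, of which 69 were tested. Between responders and non-responders, 11 were higher and 2 lower, where 5.08% of all genes were called as higher and 4.82% as lower. Between responders and control IgG tumors, 15 were higher and 5 lower, against 7.88% and 5.3% of all genes. The median log2 fold change of the 69 was 0.13 and 0.01. Both comparisons share the responder tumors, so their calls are not independent.

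Among the other ligands and receptors, the genes called belonged to the IL-18 branch. Il18bp, a secreted protein that captures IL-18, rose from 15.1 ± 1.35 CPM in non-responders (SD, n = 4) to 43.5 ± 19.7 in responders (SD, n = 5), which is 1.53 on the log2 scale (standard error 0.32, edgeR adjusted p = 0.0139). Il18r1, the ligand-binding IL-18 receptor chain, rose from 2.71 to 6.75 CPM (log2 fold change 1.31, standard error 0.22, edgeR adjusted p = 0.00679). Against control IgG tumors the log2 fold changes were 1.54 and 1.32 (edgeR adjusted p = 0.00471 and 0.00167). Responders did not overlap the other groups for either gene. That held for 12.8% of all genes against non-responders and for 15.1% against control IgG tumors. IL-18 itself (Il18) and the accessory chain Il18rap were not called, with log2 fold changes against non-responders of 0.13 (standard error 0.24) and -0.19 (standard error 0.11). Il18bp and Il18r1 were the only ones called among the 6 tested ligands and binding proteins and the 4 tested receptors of the family.

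Among 20 genes of receptor signaling, 1 was called between responders and non-responders, Map3k8, a kinase that activates the ERK pathway, at 8.89 against 6.41 CPM (log2 fold change 0.47, standard error 0.13, edgeR adjusted p = 0.0406). Against control IgG tumors 3 were higher and 1 lower, among them Map3k8 (log2 fold change 0.53, edgeR adjusted p = 0.0132) and Irak4, the first kinase recruited to Myd88, at 28.4 against 22.8 CPM (log2 fold change 0.32, standard error 0.07, edgeR adjusted p = 0.0103). The other 16 were not called. Over all genes, 5.08% were called as higher against non-responders, and 7.88% as higher and 5.3% as lower against control IgG tumors. Counts this small in a list of 20 genes cannot be told from those shares.

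Among 15 tested genes of the inflammasome and of cytokine processing, 5 were higher and 2 lower in responders in each comparison, though not all of the genes were shared. Over all genes, 5.08% were called as higher and 4.82% as lower against non-responders, and 7.88% and 5.3% against control IgG tumors. Against non-responders the higher ones were Gsdmd, the pore protein through which IL-1 beta leaves the cell, at 65.5 against 45.7 CPM (log2 fold change 0.52, standard error 0.10, edgeR adjusted p = 0.0114), Mefv at 4.28 against 2.22 CPM, Panx1, a membrane channel, at 8.30 against 5.20 CPM, and the sensors Nlrp1b at 8.93 against 6.10 CPM and Nlrp3 at 12.1 against 7.90 CPM. Log2 fold changes of Mefv, Panx1, Nlrp1b, and Nlrp3 were 0.95, 0.68, 0.55, and 0.61, with edgeR adjusted p of 0.0164, 0.0178, 0.0206, and 0.0256. For these 5 genes responders and non-responders did not overlap, which held for 12.8% of all genes. The 5 were named for their adjusted p, so this is not a separate observation. Nlrp3 was at 11.0 CPM in control IgG tumors, and its log2 fold change in responders against them was 0.14 (standard error 0.14, edgeR adjusted p = 0.577). The lower genes were Ctsg, cathepsin G, at 1.63 ± 0.755 CPM in responders (SD, n = 5) against 6.56 ± 5.95 in non-responders (SD, n = 4, log2 fold change -2, edgeR adjusted p = 0.0260), with overlap, and the DNA sensor Aim2 (log2 fold change -0.40, edgeR adjusted p = 0.0439), which is named outside the rule for named genes. Against control IgG tumors, Gsdmd, Panx1, and Mefv were again higher, with log2 fold changes of 0.56, 0.60, and 0.79 (edgeR adjusted p = 0.00245, 0.0136, and 0.0161). The others called there fell outside the rule and were named after their values were seen. They were Nlrp1b (log2 fold change 0.48) and Casp1, the protease that cleaves pro-IL-1 beta (0.39), as higher, and Aim2 (-0.41) and Casp8 (-0.29) as lower, with edgeR adjusted p of 0.0189, 0.0361, 0.0246, and 0.0285. Ctsg was not called there (edgeR adjusted p = 0.151).

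Of 17 tested genes that IL-1 is known to induce, 2 were higher in responders than in non-responders, where 5.08% of all genes were called as higher. Icam1, an adhesion molecule for leukocytes, had 13.8 ± 0.790 CPM in non-responders and rose to 25.4 ± 5.09 (SD, n = 4 and 5), a log2 difference of 0.88 (standard error 0.16, edgeR adjusted p = 0.00962) without overlap. Tnfaip3, an inhibitor of NF-kappaB, was at 40.2 and 25.9 CPM (log2 fold change 0.63, edgeR adjusted p = 0.0342). Against control IgG tumors 3 were higher, Icam1 (log2 fold change 0.67, edgeR adjusted p = 0.0106), Ptges (0.27, edgeR adjusted p = 0.0146), and Saa3, and 1 was lower. Over all genes, 7.88% were called as higher and 5.3% as lower there. Saa3, named after its values were seen, was at 22.3 against 9.48 CPM without overlap (log2 fold change 1.23, standard error 0.32, edgeR adjusted p = 0.0205). Against non-responders Saa3 was not called (edgeR adjusted p = 0.12). The lower gene was Ptgs2, the inducible cyclooxygenase, which fell from 202.6 ± 53.0 CPM in control IgG tumors (SD, n = 5) to 93.3 ± 38.7 in responders (SD, n = 5), without overlap (log2 fold change -1.12, standard error 0.26, edgeR adjusted p = 0.0130). Ptges, the prostaglandin E synthase that acts after Ptgs2, was thus higher in the tumors where Ptgs2 was lower. The difference of Ptgs2 between responders and non-responders was not called.

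Of 11 listed genes of type 2 responses downstream of IL-33, the cytokine genes Il4, Il5, Il9, and Il13 had too few counts to be tested. Of the 7 tested, Ccl17, a chemokine for T helper cells, was at 0.147 CPM in non-responders and higher in responders, at 0.483 CPM (log2 fold change 1.69, standard error 0.32, edgeR adjusted p = 0.0102), and than in control IgG tumors (log2 fold change 1.19, edgeR adjusted p = 0.0146). These Ccl17 values rest on 6 to 12 counts per tumor in control IgG tumors, 3 to 8 in non-responders, and 14 to 27 in responders. Areg, a growth factor named after its values were seen, was lower in responders than in control IgG tumors, at 10.3 against 18.9 CPM (log2 fold change -0.87, edgeR adjusted p = 0.0368), and was not called against non-responders. Retnla, a secreted product of alternatively activated macrophages, had 1.39 ± 0.919 CPM in the control IgG group, 15.4 ± 4.77 in non-responders, and 41.9 ± 21.6 in responders (SD, n = 5, 4, and 5). Its log2 fold change in responders against control IgG tumors was 4.91 (standard error 0.54, edgeR adjusted p = 0.000323). Responders and non-responders overlapped in Retnla, and their difference was not called (log2 fold change 1.45, edgeR adjusted p = 0.0702). In this gene both anti-PD-1 groups lay above the control IgG tumors without overlap. Responders and control IgG tumors did not overlap in 15.1% of all genes, and for non-responders against control IgG tumors that share is not given.

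Between non-responders and control IgG tumors, 0 of the 69 pathway genes were called with edgeR, and 6 had an unadjusted p under 0.05, as did 4.65% of all genes. Retnla had the smallest p of all genes there (log2 fold change 3.46, standard error 0.53, edgeR adjusted p = 0.0683). DESeq2 called 1 of the 69, Retnla, with the same log2 fold change of 3.46, and it called 18 of all 16287 genes.

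**Figure D5:**
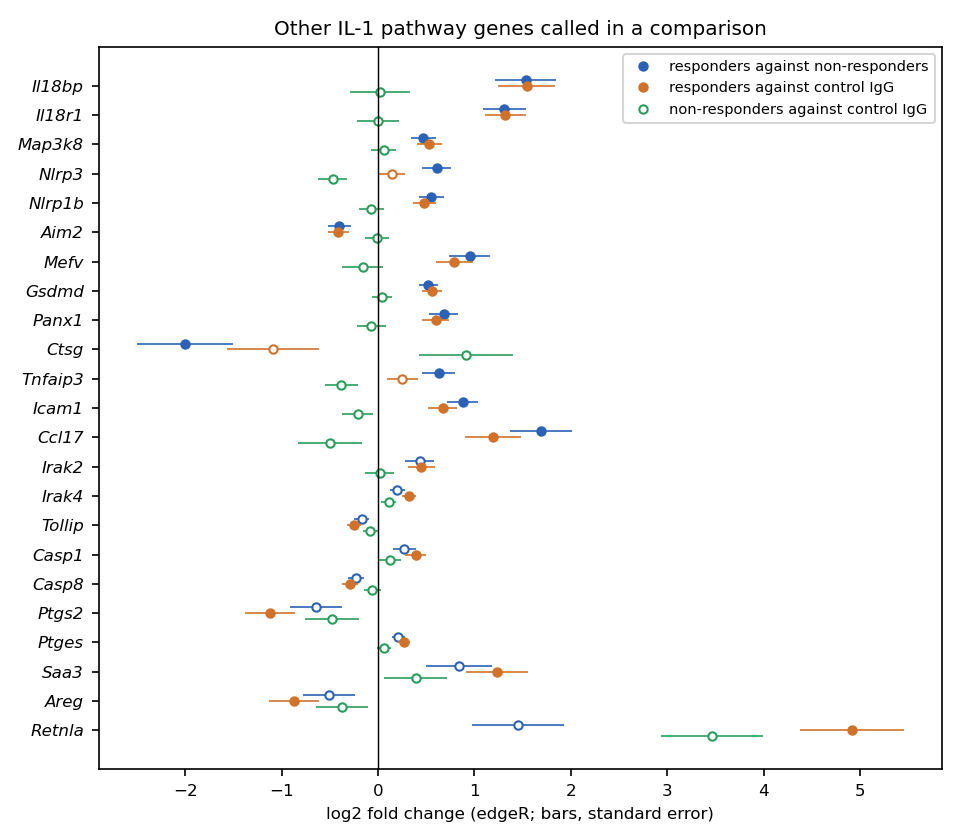
Log2 fold change from the edgeR fit (horizontal axis) of the other IL-1 pathway genes called in at least 1 comparison, with bars of 1 standard error, filled points for an adjusted p under 0.05 and open points otherwise. Retnla reaches farthest right, at 4.91 for responders against control IgG, where it is filled, and at 3.46 for non-responders against control IgG. Ctsg reaches farthest left, at -2 for responders against non-responders. Il18bp, Il18r1, and Ccl17 lie to the right in both comparisons with responders, at 1.19 to 1.69, Ptgs2 is at -1.12 against control IgG, and no point of non-responders against control IgG is filled.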

How the data were processed

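Bulk RNA-seq of 14 tumors was analysed, grouped by the sample labels. Per the labels, poly(A) RNA was sequenced, and the authors aligned reads with STAR to mm10 and estimated expression with RSEM. The authors deposited expected counts, in which RSEM estimates how many fragments each gene gave, without normalization. The deposited TPM values are scaled for effective length to the same total in each tumor. No RSEM version is given in the sources used here, and the deposited FPKM values were not used. RSEM's length column gives mean transcript length in bases, weighted by estimated isoform share.

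Expected counts were rounded and tested with edgeR 4.0.16 in R 4.3.3 (TMM, filterByExpr, quasi-likelihood test, Benjamini-Hochberg adjustment over 16287 genes), with all 14 tumors and no covariates. CPM uses TMM library sizes, a prior count of 2 entered log2 CPM, and 1 was added to TPM before logs. Log2 transcript length was tested with limma 3.58.1 over 12389 genes. DESeq2 1.42.0 was an alternative. The scripts were tested on simulated data. Of 53801 Ensembl genes, 53620 matched a symbol. A detectable share of 3 counts was at most 9.03e-06% of a tumor's total, which covers counting error only. No 2 tumors of a group differed as little as sampling noise gives (lowest chi-square per gene 21.2). Non-responder 33R stood apart from its group, at 135 to 196 per gene, where the other non-responders were at 32.8 to 37.8 among themselves. Its fragment length estimate, 287.8 bases, was also the highest. P-values measure the spread between tumors, some of which share a mouse.

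The members, the gene lists, and the tests were chosen with earlier results of these data known. Named genes are the 8 members, the listed pathway genes with an adjusted p under 0.05 (at most 12 per comparison by smallest p), and for each member the 3 genes with the highest Pearson r. Those of Il1r1 are not reported here. The alternatives tried were DESeq2, limma-voom, limma-voom with a random effect of mouse, 1 library per mouse, DESeq2's size factors, no filter or at least 1 CPM in 4 tumors, the compared groups alone, TPM, a gene length offset (loess, span 0.5), and each tumor left out in turn.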

Additional observations from a re-analysis of the deposited data

Results flagged for a closer look

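Of 45 groups of values of the 8 genes that were checked for a tumor far from the others of its group, 8 held one. A rate of about 1 in 20 groups by chance holds for continuous values. It was not measured for transcript lengths, which can tie at an annotated length. In CPM, the only one was Il1r1 in responders, where 26R was at 64.0 against 57.0 CPM in the next tumor. The other 7 were transcript lengths. Il1r2 had a tumor below the rest in every group, 17R at 1150.8 bases in control IgG tumors, 29L at 1244.9 in non-responders, and 24L at 1363.9 in responders, with the other tumors at 1419.0 bases, the length of the transcript Il1r2-201. These lengths rest on 69, 63, and 209 counts. For Il1b, 16R in control IgG tumors was at 1341.8 bases (next 1352.3) and 30R in responders at 1329.7 (next 1353.7). For Il1r1, 33L in non-responders was at 4760.3 bases (next 4837.6). For Il1rn, 14R in control IgG tumors was at 1770.7 bases (next 1652.3).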

How the results depend on the processing

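The log2 fold change of Il1rap in responders was -1.18 to -0.67 under the 10 alternatives against non-responders and -1.39 to -1.02 against control IgG tumors. It was called in each of these fits, as it was with any 1 of the 14 tumors left out, but the gene was chosen for this difference and these refits use the same tumors, so this is no independent support. The values nearest to 0 were those on the log2(TPM + 1) scale. No called value changed sign. Against non-responders, the members called went from 1 to 2 with DESeq2 and with TPM, and to 3 with mouse as a random effect and with the length trend removed. The calls gained with mouse as a random effect, Il1r1 and Il1r2, were absent with 1 library per mouse, which called 1 member and 11 pathway genes. The pathway genes called went from 13 to 21 with DESeq2 and with mouse as a random effect, 23 with TPM, and 7 with the compared groups alone. The calls over all genes moved the same way, from 1612 to 2634 with DESeq2, 2973 with mouse as a random effect, 2160 with TPM, and 689 with the compared groups alone. Between non-responders and control IgG tumors the pathway genes called went from 0 to 1 with DESeq2 and without a low-count filter. There the calls over all genes went from 0 to 18 and to 3. With 1 tumor left out, the members called were 1 to 1 against non-responders, 1 to 3 for responders against control IgG (1 without 17R, 20R, 24L, 30L, or 30R), and 0 to 0 for non-responders against control IgG. The pathway genes called were 7 to 14 (8 without 24L or 30R, 7 without 32R), 12 to 27 (12 without 24L), and 0 to 1 (1 without 35L) in the same order, and members called by transcript length 0 to 0. Calls over all genes also fell against non-responders, to 569 without 24L, 686 without 30R, and 615 without 32R. For responders against control IgG they fell from 2147 to 1192 without 24L, and for non-responders against control IgG they were 5 without 35L. The cause of these changes was not tested. No paired analysis was possible because replicate numbers were given in accession order and no mouse had tumors in 2 groups. Among the 8 genes, Il1a and Il1r2 had the fewest counts, 11 to 55 and 60 to 209 per tumor.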
